A study of Mus musculus with 12 samples.

Results

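The nuclear-encoded subunits of the mitochondrial respiratory chain were followed in MOC2, a line grown from an oral squamous cell carcinoma of the mouse. They were all protein-coding genes of the deposited table whose symbols begin with Nduf followed by a letter a, b, c, s or v and a digit, with Uqcr, with Cox and a digit from 4 to 8, or with Atp5, together with Sdha, Sdhb, Sdhc and Sdhd. This gave 84 of the 55421 genes: 35 for complex I, 4 for complex II, 8 for complex III, 20 for complex IV and 15 for complex V. The remaining 2, Atp5s and Atp5sl, carry the Atp5 symbol but are not subunits of the synthase. Ndufa4 and Ndufa4l2 were counted with complex IV, and 6 pseudogene rows whose symbols also matched were left out.

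Cells of derivative MOC2-25, labelled EV-proficient, and MOC2-27, labelled EV-deficient, were each sampled as controls given DMSO and after 600 nM paclitaxel for 48 h, with 3 libraries in each of the 4 groups. EV stands for extracellular vesicle. The study asked what vesicles from senescent cells contribute, paclitaxel served to make the cells senescent, and vesicle release had been blocked genetically in the EV-deficient cells, in a gene that the labels do not name. Each EV label belongs to 1 derivative line, so the label and the line cannot be told apart. The labels do not say whether the 3 libraries of a group came from separate cultures, so p-values measure the spread between these libraries, which may be technical.

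The respiratory chain passes electrons from NADH and succinate to oxygen. Complex I (NADH dehydrogenase) and complex II (succinate dehydrogenase, also an enzyme of the citrate cycle) reduce ubiquinone, complex III passes the electrons to cytochrome c, and complex IV reduces oxygen. Complexes I, III and IV pump protons, and complex V, the ATP synthase, uses the gradient. Most subunits are encoded in the nucleus and imported. A small set is encoded in mitochondrial DNA and assembled with them, and complex II has none of these.

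Library totals ran from 23263472 to 62955757 counts, and 18108 genes passed the filter on low counts and were tested. The epithelial markers Epcam, Cdh1, Krt8, Krt14, Krt18 and Krt6a were detected, while Krt5 and Trp63 fell below the filter in the 12 libraries. The summed level of the 8 epithelial markers was 4917 to 5823 CPM (counts scaled to a common library size, here with trimmed-mean factors) under DMSO and 3023 to 3716 CPM under paclitaxel. Its members moved apart: 4 of the 6 tested fell and Epcam rose in EV-proficient libraries, and 5 fell and Epcam rose in EV-deficient ones. Epcam was at 1.00 ± 0.09 SE and 0.29 ± 0.09 SE, Krt14 at -0.00 ± 0.07 SE and -3.09 ± 0.07 SE, and Krt6a at -1.44 ± 0.09 SE and -6.98 ± 0.12 SE. The immune markers Adgre1 and Cd3e were at 0 to 4 counts. Ptprc (CD45), the marker of all leukocytes, was at 13 to 60 counts in a library. It was at 0.311 to 0.439 CPM with DMSO and 0.593 to 1.54 CPM with paclitaxel in EV-proficient libraries, where it passed higher (1.31 ± 0.41 SE, edgeR adjusted p 0.00897), and at 0.688 to 1.05 CPM and 0.596 to 0.984 CPM in EV-deficient ones. The lysosomal protein Cd68, known as a macrophage marker, was at 6.19 to 8.46 CPM under DMSO and 21.4 to 39.2 CPM under paclitaxel. The 3 endothelial markers summed to 1.69 to 2.49 CPM over the DMSO and 2.55 to 4.26 CPM over the paclitaxel libraries. Pecam1 rose under both labels (1.66 ± 0.37 SE and 1.15 ± 0.34 SE) and Cdh5 in EV-deficient libraries (0.87 ± 0.29 SE), and none fell. The 7 mesenchymal markers, mostly Vim, summed to 1102 to 1206 CPM with DMSO and 351 to 380.4 CPM with paclitaxel in EV-proficient libraries, and to 728 to 793 CPM and 701 to 737 CPM in EV-deficient ones. Vim itself fell by 1.69 ± 0.06 SE in EV-proficient libraries and was at -0.09 ± 0.06 SE in EV-deficient ones. Lum and Pdgfrb, at 0 to 5 and 0 to 15 counts in a library, fell below the filter. Col1a1 in EV-proficient libraries (0.59) and Col1a2 under either label (1.00 and 1.83) did not pass. Of the 5 mesenchymal markers tested, Dcn (1.71 ± 0.56 SE and 2.88 ± 0.52 SE) and Pdgfra (1.81 ± 0.21 SE and 1.26 ± 0.19 SE) rose under both labels and Col1a1 in EV-deficient libraries (1.11 ± 0.36 SE), and the median over the 5 was 1.00 and 1.26. The part of these shifts in the results below was not tested.

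The order of the EV labels turned between treatments for an added row of the table and for most genes, which touches every comparison of EV labels, the size of the paclitaxel effect within each label and the interaction. A row for dngfr, marked in the table as added and not a gene of the mouse annotation, was at 5.29 to 11.4 CPM in EV-proficient and 1.68 to 2.33 CPM in EV-deficient DMSO libraries. Under paclitaxel the order was turned, with 2.60 to 4.0 CPM in the libraries labelled EV-proficient and 10.9 to 14.2 CPM in those labelled EV-deficient. Of all 18108 genes tested, 32.9% had the same sign of difference between EV labels under both treatments. The mean of the 2 paclitaxel effects, over all 12 libraries, keeps its value whichever EV label a library carries within its treatment. It is therefore given beside the comparisons within a label, whose sizes hold for the labels as given. Whether the EV labels were exchanged in 1 of the treatments was not tested.

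Scaling also bears on every direction below. The trimmed-mean factors were 0.890 to 0.939 in DMSO and 1.05 to 1.15 in paclitaxel libraries. With unscaled library totals, an alternative chosen after the data were seen, the median log2 fold change of all genes under paclitaxel moved up by 0.20 in EV-proficient and by 0.32 in EV-deficient cells. Verbs of direction refer to trimmed-mean scaling unless another is named. Another scaling shifts all genes of a comparison nearly alike, so the members' median relative to the median of all genes is fixed almost by construction, and its value under every scaling is no sign of stability.

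Before the values, promoters of 6 members are shown, because a site for nuclear respiratory factor 1 (NRF1) is the textbook motif of this gene family, and because the ATP synthase genes Atp5g1, Atp5g2 and Atp5k, among those with the largest changes described below, differ in it. The motif was searched as GCGCA, then any base, then GCGC, on both strands, in the 250 bases before and 50 after each RefSeq gene start, where 69 of the 84 members had an entry. It was found in 17 of them (24.6%), against 5.19% of all 27025 genes with an entry. The 27025 were not filtered for protein-coding or expressed genes, while all members are protein-coding, so the sets are unlike. CCGGAAG, the core bound by ETS factors such as GABP, was found on either strand in 16 (23.2%, against 9.93% of all), and AAGATGG, the core bound by YY1, in 12 (17.4%, against 7.28%). A match describes the letters and is not evidence of binding. The 200 bases before the start are printed on the gene's strand from RefSeq (GRCm38.p6), in lower case, with matches to the NRF1 and ETS motifs in capitals. Sdha (chr13:74350241-74350440, minus strand) and Ndufb4 (chr16:37654369-37654568, minus strand) each had 3 NRF1 matches in this stretch, and Cox6a1 (chr5:115348959-115349158, minus strand) had 2 with 1 ETS match, read on the reverse strand.
Sdha: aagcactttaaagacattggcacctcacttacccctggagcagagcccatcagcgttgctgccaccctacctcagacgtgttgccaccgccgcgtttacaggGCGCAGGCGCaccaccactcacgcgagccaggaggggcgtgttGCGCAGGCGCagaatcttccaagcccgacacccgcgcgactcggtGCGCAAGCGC
Ndufb4: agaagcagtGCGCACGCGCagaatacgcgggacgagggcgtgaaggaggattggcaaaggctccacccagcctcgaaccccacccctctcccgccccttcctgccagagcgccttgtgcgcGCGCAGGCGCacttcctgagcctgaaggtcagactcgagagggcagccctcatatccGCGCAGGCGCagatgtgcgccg
Cox6a1: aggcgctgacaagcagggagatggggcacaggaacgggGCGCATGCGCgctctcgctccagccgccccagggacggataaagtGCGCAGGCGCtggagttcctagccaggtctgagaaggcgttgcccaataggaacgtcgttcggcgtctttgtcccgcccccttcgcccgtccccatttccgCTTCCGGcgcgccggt
Of the ATP synthase genes, Atp5g2 (chr15:102671048-102671247, minus strand) and Atp5k (chr5:108434400-108434599, minus strand) had 1 NRF1 match each, while Atp5g1 (chr11:96075632-96075831, minus strand) had none in this window.
Atp5g2: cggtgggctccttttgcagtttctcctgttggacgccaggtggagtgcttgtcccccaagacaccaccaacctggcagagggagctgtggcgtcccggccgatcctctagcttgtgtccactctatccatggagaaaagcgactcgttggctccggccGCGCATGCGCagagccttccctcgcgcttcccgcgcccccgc
Atp5k: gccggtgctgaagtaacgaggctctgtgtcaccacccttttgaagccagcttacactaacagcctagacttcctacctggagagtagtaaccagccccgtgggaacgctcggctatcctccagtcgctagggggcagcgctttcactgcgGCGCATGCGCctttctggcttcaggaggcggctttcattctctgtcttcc
Atp5g1: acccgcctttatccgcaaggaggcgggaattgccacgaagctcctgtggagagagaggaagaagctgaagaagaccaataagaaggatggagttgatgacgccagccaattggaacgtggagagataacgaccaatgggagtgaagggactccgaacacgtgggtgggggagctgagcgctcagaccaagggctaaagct

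Levels were first compared between members per length, as TPM (transcripts relative to all transcripts of a library, from counts and annotated exon lengths). The most abundant was Atp5b, the catalytic beta subunit of the synthase, at a mean of 1327, 1366, 1400.0 and 1283 TPM in EV-proficient DMSO, EV-deficient DMSO, EV-proficient paclitaxel and EV-deficient paclitaxel libraries. Next was Atp5a1, the alpha subunit, at 1075, 1154, 1167 and 1005 TPM in the same order. Cox8a, Cox4i1 and Cox6a1, nuclear subunits that surround the mitochondrially encoded core of complex IV, followed. Isoforms known from muscle, testis or lung were at the bottom. Cox7a1 had 4.74 and 4.72 TPM under DMSO, Cox4i2 and Cox6a2 lay at or under 1.66 TPM in every group mean, and Cox8c had no count in any library. Cox6b2, Cox7b2, Cox8b, Cox8c and Ndufa4l2, with at most 9 counts in a library, failed the filter, so 79 members were tested. Ndufb2, a complex I subunit, also stood low at 0.510 to 0.736 TPM, and near-identical copies cover 46.0% of its coding sequence, so that how its reads were divided is uncertain.

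Under paclitaxel, most subunits fell relative to the other genes. Averaged over both EV labels, 60 of the 79 members passed the threshold of an adjusted p under 0.05 in edgeR's quasi-likelihood test, 53 lower and 7 higher, where 68.4% of all genes tested passed, 37.1% higher and 31.3% lower. The members' median log2 fold change was -0.29, against 0.07 over all genes, and 69 of 79 members lay below that median. In a sum over bulk RNA, fewer cells of a type and less RNA per cell cannot be told apart. The split of calls followed the scaling: 13 higher and 41 lower with upper-quartile scaling, and 23 higher and 25 lower with unscaled totals (47.9% of called members higher, against 72.7% of all called genes). The members' median lay 0.36 below that of all genes. Of the 53 that were lower, 39 kept the direction and 25 the call under the 3 other scalings. With trimmed means, all 15 complex V subunits passed lower (median -0.32), as did all 4 of complex II (-0.34), 6 of 8 of complex III (-0.41), 21 of 35 of complex I (-0.23) and 7 of the 15 tested of complex IV (-0.19).

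Within the EV-proficient libraries 42 members passed, 11 higher and 31 lower, where 58.2% of all genes passed, 31.1% higher and 27.1% lower. Their median was -0.13 and that of all genes 0.05. It was -0.22 without EV-proficient paclitaxel replicate 2 and -0.08 without EV-proficient DMSO replicate 2. Of the 31 that were lower, 28 kept the direction and 12 the call under all 3 other scalings, and unscaled totals gave 27 higher and 12 lower with a median of 0.07 (all genes 0.25), so the direction of this median turned. At that scaling 69.2% of the called members were higher, close to the 68.7% of all called genes. Relative to the median of all genes it is -0.18. In the EV-deficient libraries 64 members passed, 5 higher and 59 lower, where 62.9% of all genes passed, 32.4% higher and 30.5% lower. The median was -0.40, against 0.07 for all genes. There 43 of the 59 kept the direction and 28 the call under the other scalings, and unscaled totals gave 14 higher and 28 lower (median -0.08, all genes 0.40), with 33.3% of called members higher against 72.1% of all called genes. Relative to all genes the median is -0.47, with 72 of 79 members below the median of all genes. By the labels as given, the fall was thus larger in the EV-deficient libraries. Set across the labels, the members' median was -0.31 for EV-deficient paclitaxel against EV-proficient DMSO libraries and -0.25 for EV-proficient paclitaxel against EV-deficient DMSO libraries (all genes 0.10 and 0.05), with no test run on these. Both comparisons within a label called 38 of 79 members, 29 lower in both, 5 higher in both and 4 in opposite directions. Of the 18108 genes they called 8066, of which 3352 were lower in both, 3431 higher in both and 1283 in opposite directions.

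**Figure D1:**
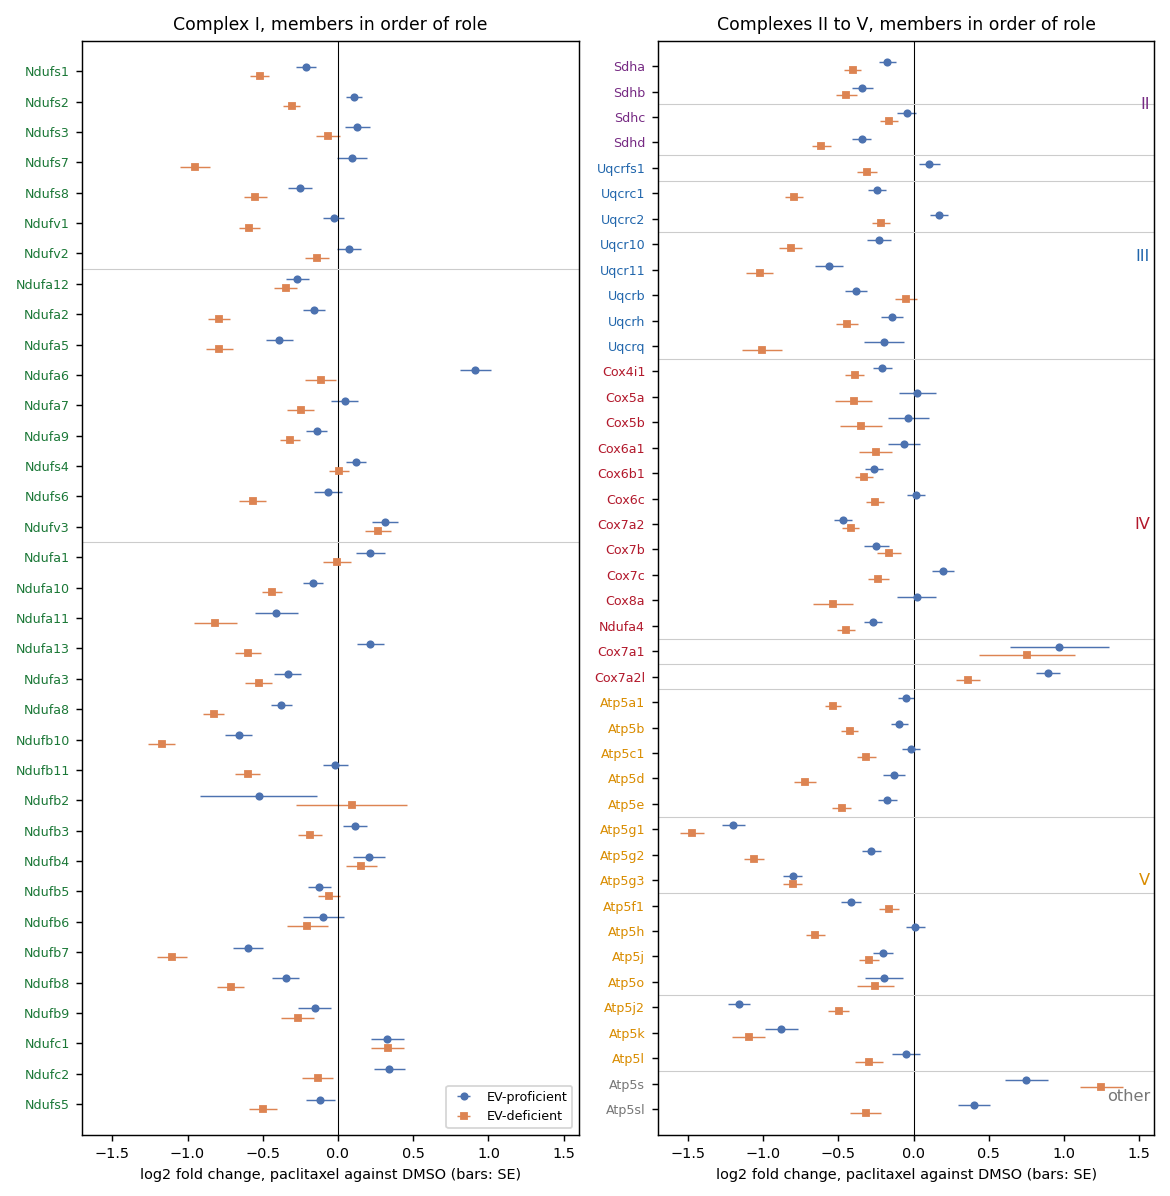
Log2 fold change of paclitaxel against DMSO for 77 tested members in order of their role, complex I on the left and complexes II to V and the 2 symbol-only genes on the right; circles are EV-proficient and squares EV-deficient libraries, bars are standard errors, and grey lines part the roles. Cox4i2 and Cox6a2, whose standard errors exceed 0.5, are left out; most squares lie left of their circles, and Atp5g1 of complex V lies farthest left.

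The c ring of the ATP synthase, the rotor that protons turn, is made of copies of 1 small protein that 3 genes, Atp5g1, Atp5g2 and Atp5g3, encode with different import sequences. All 3 passed lower under both labels, where 3352 of all 18108 genes did so. Atp5g1 (ENSMUSG00000006057, chr11:96068852-96075670, GRCm38) had 161, 188 and 185 CPM in the EV-proficient DMSO libraries, 75.3, 76.1 and 81.4 CPM with paclitaxel, 195, 179 and 191 CPM in the EV-deficient DMSO libraries and 65.0, 61.7 and 76.5 CPM with paclitaxel. All 6 paclitaxel libraries lay far below all 6 DMSO libraries. Its log2 fold changes, the lowest of any member above 5 CPM, were -1.20 ± 0.08 SE (edgeR adjusted p 3.54e-11) and -1.47 ± 0.08 SE (8.8e-13).

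Atp5g3 (ENSMUSG00000018770, chr2:73908447-73911326) went from 198, 228 and 215 CPM to 128, 122 and 118 CPM in EV-proficient libraries and from 221, 215 and 225 CPM to 130.5, 119 and 129 CPM in EV-deficient libraries. The fall was nearly the same under both labels, -0.80 ± 0.06 SE each (edgeR adjusted p 5.96e-10 and 3.63e-10), with an interaction of 0.00 ± 0.09 SE. Atp5g2 (ENSMUSG00000062683, chr15:102662864-102672352) went from 118, 126 and 124 CPM to 100.3, 110.1 and 92.3 CPM in EV-proficient libraries and from 131, 130.3 and 132 CPM to 65.4, 61.7 and 61.4 CPM in EV-deficient libraries. Its paclitaxel libraries were all below its DMSO libraries, and those labelled EV-deficient stood far lower than those labelled EV-proficient. The fold changes were -0.28 ± 0.06 SE and -1.06 ± 0.07 SE, and the difference between them was -0.78 ± 0.09 SE (edgeR adjusted p 6.22e-07). The EV-proficient call was lost with unscaled totals. Pseudogenes nearly identical to Atp5g1 and Atp5g2 cover their whole coding sequences, so their reads may have been divided. No such copy was found for Atp5g3. Per length, the 3 genes stood at 118, 239.8 and 321 TPM for Atp5g1, Atp5g2 and Atp5g3 in EV-proficient DMSO libraries, and at 55.8, 151 and 234 TPM in EV-deficient paclitaxel libraries.

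The small membrane subunits beside the c ring are known for joining synthase dimers, and 2 of the 3 here, Atp5j2 and Atp5k, fell under both labels. Of all 18108 genes, 3352 passed lower under both. Atp5j2, subunit f, had 117, 135 and 119 CPM in EV-proficient DMSO and 51.7, 59.6 and 54.7 CPM in EV-proficient paclitaxel libraries. In the EV-deficient libraries it had 105, 99.1 and 92.6 CPM with DMSO and 67.6, 69.3 and 73.1 CPM with paclitaxel. Paclitaxel libraries lay below DMSO libraries under both labels, and this member fell less in EV-deficient cells, -0.50 ± 0.07 SE against -1.16 ± 0.07 SE. Atp5k, subunit e, fell by 0.88 ± 0.11 SE and 1.10 ± 0.11 SE on the log2 scale, from 33.8 to 44.3 CPM over the 6 DMSO libraries to 15.3 to 22.8 CPM over the 6 paclitaxel libraries. A near-identical pseudogene covers 98.6% of its coding sequence, so its reads may have been divided. Atp5l, subunit g, fell by 0.30 ± 0.09 SE in the EV-deficient libraries (edgeR adjusted p 0.0083) and was at -0.05 ± 0.10 SE in the EV-proficient ones. With unscaled totals its direction turned.

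The catalytic head of the synthase moved little in EV-proficient cells. Atp5a1 had 1031, 1067 and 991 CPM with DMSO and 989, 1021 and 969 CPM with paclitaxel, which overlapped, and 1169.5, 1116 and 1105 CPM against 805, 766 and 771 CPM in EV-deficient libraries, which did not. The log2 fold changes were -0.05 ± 0.05 SE (edgeR adjusted p 0.428) and -0.53 ± 0.05 SE (1.89e-08). Atp5b was at -0.09 ± 0.06 SE and -0.43 ± 0.06 SE, the latter not called with unscaled totals. All 5 head and stalk genes passed lower in EV-deficient libraries, from -0.72 (Atp5d, the delta subunit) to -0.31, and only Atp5e, the epsilon subunit, did so in EV-proficient ones. Of all genes 30.5% and 27.1% passed lower, so the EV-proficient count is near the background. The interaction passed for all 5, where 40.7% of all genes passed. Unscaled totals turned Atp5e in EV-proficient and Atp5c1 in EV-deficient libraries to small positive values. In the peripheral stalk, which holds the head still, Atp5f1 (subunit b) fell more in EV-proficient cells (-0.42 ± 0.07 SE against -0.17 ± 0.07 SE, which turned to 0.16 with unscaled totals), while Atp5h (subunit d) passed the threshold in EV-deficient cells alone (-0.65 ± 0.06 SE against 0.01 ± 0.06 SE). The interaction was 0.25 ± 0.09 SE (edgeR adjusted p 0.0389) for Atp5f1, a call lost without any 1 of 5 libraries (EV-proficient and EV-deficient DMSO replicates 2 and 3, EV-deficient paclitaxel replicate 1; 0.20 to 0.24) and without the low-count filter (0.18), and -0.67 ± 0.09 SE (3.49e-06) for Atp5h. Near-identical pseudogenes cover 90.1% of the coding sequence of Atp5f1 and 100% of that of Atp5h.

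**Figure D2:**
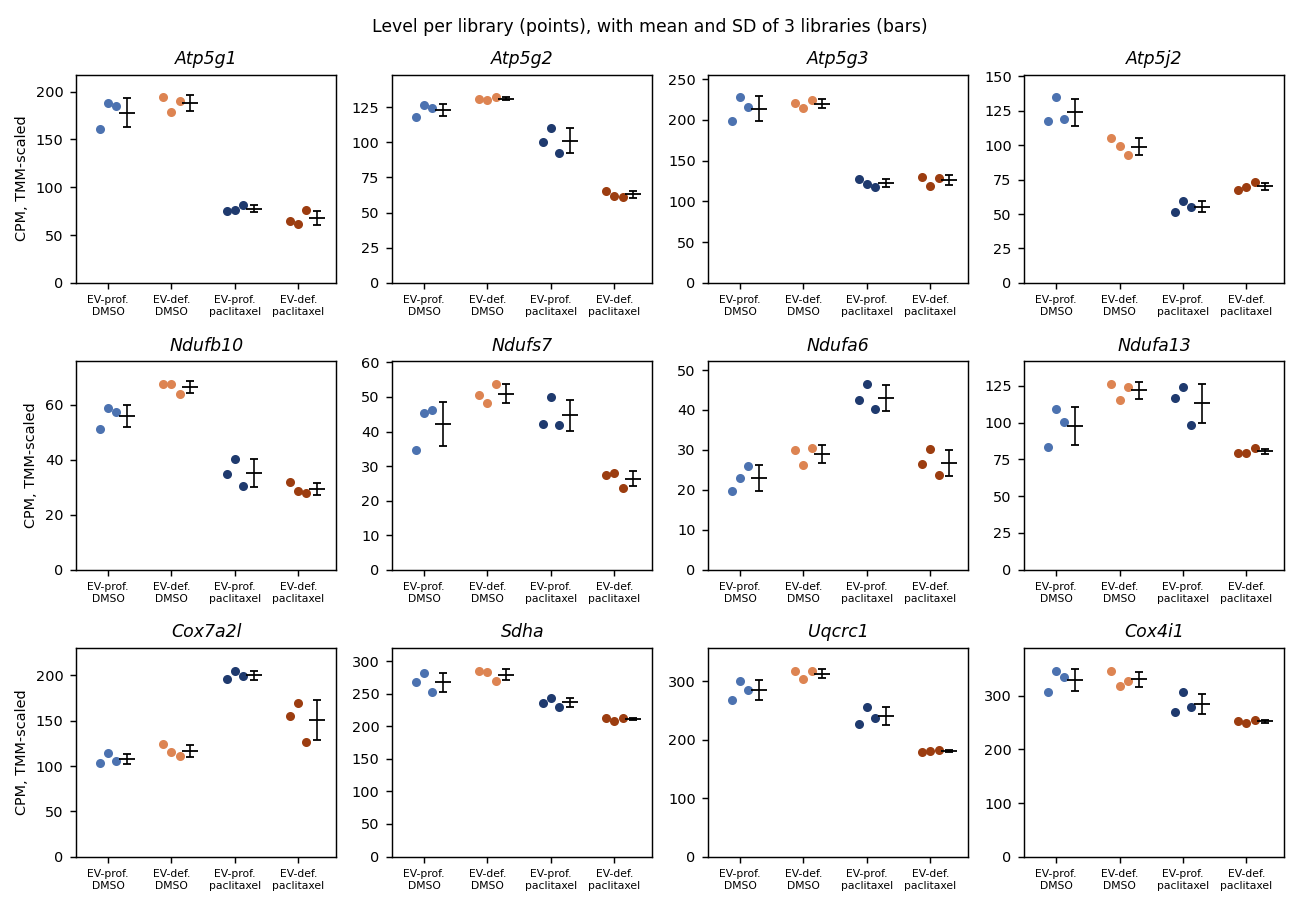
Level of 12 members in each library as scaled CPM, with points for libraries and bars for the mean and SD of 3 libraries in each of the 4 groups; every axis starts at 0. Atp5g1 and Atp5g3 are lower in all 6 paclitaxel libraries, Ndufs7 and Ndufa13 are lowest in the libraries labelled EV-deficient given paclitaxel, and Ndufa6 and Cox7a2l are highest in those labelled EV-proficient given paclitaxel.

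Complex I has 7 nuclear core subunits, which carry the flavin and the iron-sulfur clusters, and 28 accessory genes here. Under paclitaxel 2 core subunits fell in EV-proficient libraries, Ndufs1 (-0.21 ± 0.07 SE) and Ndufs8 (-0.25 ± 0.08 SE), neither of them called under every scaling. In EV-deficient libraries 5 of the 7 fell, with a median of -0.52 over the 7. Of all genes, 27.1% and 30.5% fell in these comparisons, so the EV-proficient count is near the background. Ndufs7 (ENSMUSG00000020153, chr10:80249121-80256794), which carries the last cluster before ubiquinone, had 34.7, 45.2 and 46.2 CPM in EV-proficient DMSO and 42.3, 49.9 and 41.8 CPM in EV-proficient paclitaxel libraries. In EV-deficient libraries it had 50.5, 48.4 and 53.8 CPM with DMSO and 27.3, 27.9 and 23.8 CPM with paclitaxel. The EV-proficient groups overlapped and the EV-deficient groups stood apart. Its log2 fold changes were 0.09 ± 0.10 SE and -0.95 ± 0.10 SE, and the interaction of -1.04 ± 0.14 SE (edgeR adjusted p 3.78e-06) was the lowest among members above 5 CPM. Ndufv1, the flavin-binding subunit, ran likewise (-0.03 ± 0.07 SE and -0.59 ± 0.07 SE), and Ndufv2 and Ndufs3 passed under neither label.

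Among the accessory subunits, the lowest were Ndufb10 and Ndufb7, which sit in the membrane arm on the side of the intermembrane space. Ndufb10 (ENSMUSG00000040048, chr17:24722060-24724478) went from 51.1, 58.7 and 57.3 CPM to 34.6, 40.3 and 30.3 CPM in EV-proficient libraries and from 67.6, 67.5 and 63.7 CPM to 31.9, 28.5 and 27.8 CPM in EV-deficient libraries. All 6 paclitaxel libraries lay below all 6 DMSO libraries. It fell by 0.66 ± 0.09 SE and 1.17 ± 0.09 SE on the log2 scale (edgeR adjusted p 1.55e-06 and 2.02e-10). Ndufb7 fell by 0.60 ± 0.10 SE and 1.10 ± 0.10 SE, from 80.1 to 104 CPM over the DMSO libraries to 40.0 to 66.3 CPM over the paclitaxel libraries. Ndufa8, another subunit of that side, fell by 0.38 ± 0.07 SE and 0.83 ± 0.07 SE.

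A few complex I subunits rose. Ndufa6 (ENSMUSG00000022450, chr15:82350140-82354322), an accessory subunit of the matrix arm, had 19.8, 23.05 and 26.1 CPM in EV-proficient DMSO and 42.5, 46.6 and 40.1 CPM in EV-proficient paclitaxel libraries. In EV-deficient libraries it had 30.1, 26.3 and 30.5 CPM with DMSO and 26.4, 30.1 and 23.7 CPM with paclitaxel. The EV-proficient paclitaxel libraries stood above the other 9. Within the EV-deficient label the groups overlapped, and the EV-proficient DMSO libraries lay below the EV-deficient DMSO libraries. The log2 fold changes were 0.91 ± 0.10 SE (edgeR adjusted p 1.41e-07) and -0.11 ± 0.10 SE (0.344). Ndufc1 rose by 0.33 ± 0.11 SE under both labels, and its call in the EV-deficient libraries was lost without EV-deficient DMSO replicate 2 (0.29). Ndufv3 rose by 0.31 ± 0.09 SE and 0.26 ± 0.09 SE. Ndufa13, also known as Grim19, rose by 0.22 ± 0.09 SE in EV-proficient libraries, a call that another scaling lost, and fell by 0.60 ± 0.09 SE in EV-deficient ones. Exons of genes on the other strand overlap 30.0% of its exon bases, and their reads cannot be told apart where strand was not used in counting.

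Complex II, the only complex made wholly from nuclear genes, moved as a set of small changes. Sdha, the flavoprotein, had 269, 282 and 252 CPM against 236, 244 and 230.2 CPM with paclitaxel in EV-proficient libraries, and 286, 283 and 270.2 CPM against 212, 209 and 212 CPM in EV-deficient libraries. Paclitaxel libraries were lower under both labels without overlap, by 0.18 ± 0.06 SE and 0.41 ± 0.06 SE on the log2 scale, but with unscaled totals the EV-proficient value turned to 0.02. Sdhb, the iron-sulfur subunit, was at -0.34 ± 0.07 SE and -0.45 ± 0.07 SE. The calls of Sdhb and the EV-deficient call of Sdha were lost with unscaled totals. Of the membrane anchors, Sdhd fell more (-0.34 ± 0.06 SE and -0.61 ± 0.06 SE, called under every scaling) than Sdhc. Sdhc had 86.1, 85.8 and 87.8 CPM against 87.5, 86.7 and 76.8 CPM in EV-proficient libraries, which overlapped (-0.05 ± 0.06 SE). In EV-deficient libraries it had 84.6, 80.0 and 83.1 CPM against 74.3, 71.7 and 74.9 CPM, and its change of -0.16 ± 0.06 SE turned to 0.16 with unscaled totals.

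In complex III, Uqcrc1, a core protein, fell from 267, 300.4 and 285 CPM to 227, 256 and 236 CPM in EV-proficient libraries and from 318, 304 and 316 CPM to 178, 179.7 and 182 CPM in EV-deficient libraries. The log2 fold changes were -0.24 ± 0.06 SE and -0.80 ± 0.06 SE (edgeR adjusted p 0.00151 and 2.3e-10), the first not called with unscaled totals. Its partner Uqcrc2 rose by 0.17 ± 0.06 SE in EV-proficient libraries, a call that another scaling lost, and was at -0.22 ± 0.06 SE in EV-deficient ones, which turned to 0.11 with unscaled totals. The small subunits Uqcr11 and Uqcrq were at -1.02 ± 0.09 SE and -1.01 ± 0.13 SE in EV-deficient libraries. Uqcrb went the other way round, at -0.39 ± 0.07 SE in EV-proficient and -0.05 ± 0.07 SE in EV-deficient libraries (interaction 0.33 ± 0.10 SE, a call lost without EV-proficient DMSO replicate 2 at 0.28, without EV-deficient DMSO replicate 1 at 0.29 and without the low-count filter at 0.27). All 8 complex III subunits passed the interaction test, where 40.7% of all genes passed, and for 7 of them the paclitaxel effect was the lower one in the EV-deficient libraries. Near-identical pseudogenes cover 100% of the coding sequences of Uqcr11 and Uqcrb, so their reads may have been divided.

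Complex IV had the smallest median shifts on the trimmed-mean scale, -0.04 and -0.33. Of its 11 common isoforms, 5 fell and 1 rose past the threshold in EV-proficient libraries, and 10 fell in EV-deficient ones, where 27.1% and 30.5% of all genes fell and 31.1% and 32.4% rose. Cox4i1, the regulatory subunit, had 307, 347 and 335 CPM against 270.0, 307 and 279.6 CPM with paclitaxel in EV-proficient libraries, and 347, 319 and 327 CPM against 253, 249 and 255 CPM in EV-deficient libraries. Paclitaxel libraries were lower, with the highest EV-proficient one just under the lowest DMSO library. The log2 changes of -0.21 ± 0.06 SE and -0.39 ± 0.06 SE were not called with unscaled totals. Cox7a2 fell by 0.47 ± 0.06 SE and 0.42 ± 0.06 SE, the latter not called with unscaled totals. Its relative Cox7a2l (ENSMUSG00000024248, chr17:83501918-83517330), known for joining complexes III and IV into supercomplexes, rose instead. It went from 104, 114 and 105 CPM to 196, 205 and 199 CPM in EV-proficient libraries and from 124, 116 and 111 CPM to 155, 169.8 and 126 CPM in EV-deficient libraries. Paclitaxel and DMSO libraries did not overlap under either label, and the rise was larger in EV-proficient cells, 0.89 ± 0.08 SE (edgeR adjusted p 5.92e-09) against 0.36 ± 0.08 SE (0.000572), with an interaction of -0.53 ± 0.11 SE. A near-identical pseudogene covers 50% of its coding sequence. Cox7a1, the muscle relative of Cox7a2, also passed higher (0.97 ± 0.33 SE and 0.75 ± 0.32 SE), at no more than 1.89 CPM in any library.

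Atp5s, also called distal membrane arm assembly component 2 like, is not a synthase subunit and rose under both labels (0.75 ± 0.15 SE and 1.25 ± 0.14 SE), from 5.51 to 8.49 CPM over the DMSO libraries to 10.5 to 16.5 CPM over the paclitaxel libraries. Atp5sl, a relative of it known as an assembly factor of complex I, rose in EV-proficient (0.40 ± 0.10 SE) and was at -0.32 ± 0.10 SE in EV-deficient libraries, where unscaled totals turned the direction.

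As a share of all counts the chain moved by small amounts. Among EV-proficient libraries the 84 members held 0.852% ± 0.041 of counts with DMSO and 0.892% ± 0.021 with paclitaxel (mean ± SD, n = 3 for these and the next). Among EV-deficient libraries they held 0.902% ± 0.011 and 0.821% ± 0.023. Complex V took 0.406% ± 0.014 and 0.408% ± 0.0078 in the first pair, and 0.428% ± 0.0032 and 0.375% ± 0.013 in the second. Complex I took 0.177% ± 0.011 and 0.195% ± 0.0063, and 0.191% ± 0.0029 and 0.176% ± 0.0056. These shares are not scaled, and on the trimmed-mean scale the EV-proficient change of complexes I, III, IV and V and of all 84 members (log2 0.07 to -0.13) and the EV-deficient change of complex IV turned from up to down. The unscaled EV-proficient change of complex V also turned, from 0.0058 to -0.023 without EV-proficient DMSO replicate 1 and to -0.0095 without EV-proficient paclitaxel replicate 2. That of complex II, at -0.027, ran from -0.056 to 0.011 without 1 library.

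The 13 subunits encoded in mitochondrial DNA summed to a larger share under paclitaxel, and in EV-proficient libraries this rested on 1 of them, mt-Co1. Together they held 0.619% ± 0.086 of counts in EV-proficient DMSO and 0.853% ± 0.029 in EV-proficient paclitaxel libraries, and 0.609% ± 0.075 and 1.22% ± 0.18 in the EV-deficient ones (SD, n = 3 each). The ratio of nuclear member counts to mitochondrially encoded subunit counts needs no scaling. It was 1.23, 1.68 and 1.29 with DMSO and 1.01, 1.07 and 1.07 with paclitaxel in EV-proficient libraries, and 1.54, 1.29 and 1.67 against 0.605, 0.644 and 0.805 in EV-deficient libraries. All 6 paclitaxel libraries lay below all 6 DMSO libraries, and the EV-deficient paclitaxel libraries lay lowest. The gene mt-Co1 gave 49.1% to 53.9% of the mitochondrially encoded counts with DMSO and 60.3% to 70.1% with paclitaxel. Without it the ratio was 2.67, 3.502 and 2.74 with DMSO and 2.71, 2.96 and 2.83 with paclitaxel in EV-proficient libraries, which overlapped, and 3.11, 2.59 and 3.28 against 1.72, 2.15 and 2.03 in EV-deficient libraries, which did not. The other 12 genes then held 0.290% ± 0.037 and 0.315% ± 0.0089 of counts in EV-proficient and 0.304% ± 0.035 and 0.421% ± 0.061 in EV-deficient libraries (SD, n = 3 each). The most abundant of the 13 was mt-Co1, the catalytic subunit of complex IV, at 2943 to 3854 CPM over the DMSO libraries and 4820.0 to 8003 CPM over the paclitaxel libraries (0.52 ± 0.12 SE and 1.06 ± 0.12 SE). In EV-proficient and EV-deficient libraries mt-Co2 (0.62 and 0.84), mt-Co3 (0.71 and 0.98) and mt-Atp6 (0.68 and 1.08) rose too, called under every scaling. The complex I subunit mt-Nd1 fell in EV-proficient libraries (-0.44 ± 0.09 SE) and was at 0.11 ± 0.09 SE in EV-deficient ones. Of the 11 tested, 4 rose and 1 fell in EV-proficient and 6 rose in EV-deficient libraries, where 31.1% and 32.4% of all genes rose, so the EV-proficient count is near the background. In the EV-deficient libraries upper-quartile scaling and unscaled totals each called 10 higher, where 63.4% and 72.1% of all called genes were higher. The libraries were selected for poly(A), so how much of the mitochondrial RNA they hold was not tested, and mt-Co2, mt-Co3 and mt-Atp6, at 88 to 772 counts, stood far below mt-Co1.

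**Figure D3:**
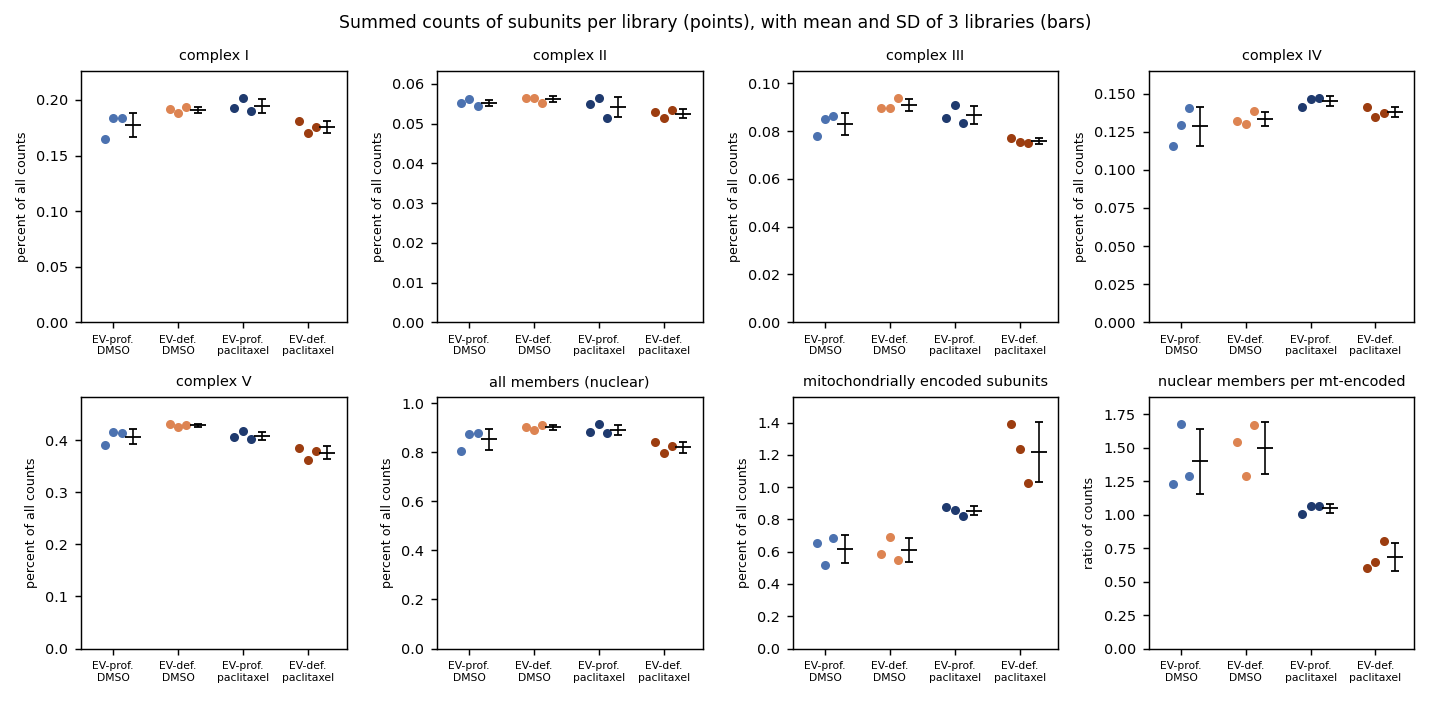
Summed counts of the nuclear members by complex, of all members and of the mitochondrially encoded subunits as percent of all counts per library, and the ratio of nuclear to mitochondrially encoded counts; points are libraries, bars the mean and SD of 3, and every axis starts at 0. The nuclear shares move by small steps, while the mitochondrially encoded share rises from 0.619% to 0.853% in EV-proficient and from 0.609% to 1.22% in EV-deficient libraries, with mt-Co1 included.

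Genes that work with the chain were described from lists of their textbook members. Of 45 assembly factors tested, 8 rose and 19 fell in EV-proficient libraries (median -0.14), and 5 rose and 26 fell in EV-deficient ones (median -0.32). Of all genes, 31.1% rose and 27.1% fell in the former and 32.4% and 30.5% in the latter, and the medians of the list lay 0.19 and 0.39 below those of all genes. Unscaled totals gave 11 rising and 13 falling, and 12 rising and 14 falling, with medians turned to 0.06 and 0.006, where those of all genes were 0.25 and 0.40. Ecsit, a complex I assembly factor, fell by 1.19 ± 0.12 SE and 1.28 ± 0.12 SE, and Cox10, which makes the heme of complex IV, by 0.94 ± 0.08 SE and 1.40 ± 0.08 SE. Nubpl, which delivers iron-sulfur clusters to complex I, rose by 0.90 ± 0.12 SE and 0.70 ± 0.12 SE. These 3 kept their calls under every scaling. Cyc1, the cytochrome of complex III that the symbol rule does not take in, fell by 0.50 ± 0.07 SE and 1.31 ± 0.07 SE, and cytochrome c itself, Cycs, by 0.96 ± 0.08 SE and 0.91 ± 0.08 SE. Both belong to a list of 7 subunits and carriers outside the rule. Of these 2 rose and 3 fell in EV-proficient and 1 rose and 3 fell in EV-deficient libraries, against the shares of all genes above. Etfdh, of the same list, rose under both labels (0.19 and 0.49).

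Of 13 citrate cycle enzymes, 5 passed lower in EV-proficient and 11 in EV-deficient libraries, with none higher, where 27.1% and 30.5% of all genes passed lower. With unscaled totals 6 rose and 4 fell in the former, and 2 rose and 6 fell in the latter, where 68.7% and 72.1% of all called genes were higher. Ogdh, a subunit of the oxoglutarate dehydrogenase complex, fell by 0.80 ± 0.06 SE and 0.81 ± 0.06 SE and kept its call under every scaling. Of 12 regulators of mitochondrial transcription and biogenesis, 5 rose and 3 fell in EV-proficient libraries, and 1 rose and 8 fell in EV-deficient ones, where 58.2% and 62.9% of all genes passed in either direction. Unscaled totals gave 7 rising and 2 falling in the former, and 3 rising and 3 falling in the latter, where 68.7% and 72.1% of all called genes were higher. Ppargc1a, the coactivator known for raising respiratory genes, rose from 0.341, 0.431 and 0.556 CPM to 2.09, 3.09 and 2.91 CPM in EV-proficient libraries and from 0.642, 0.730 and 0.548 CPM to 2.81, 2.31 and 2.44 CPM in EV-deficient libraries. Both rises were without overlap (2.61 ± 0.28 SE and 1.97 ± 0.26 SE). Its relative Pprc1 fell by 0.96 ± 0.06 SE and 1.32 ± 0.06 SE from a far higher level, 309 to 326 CPM over the DMSO libraries. Ppargc1b, another relative at 21 to 165 counts in a library, rose by 1.97 in EV-proficient libraries and was at -0.41 in EV-deficient ones. Nrf1, the factor whose motif was searched above, was at -0.20 ± 0.07 SE and -0.80 ± 0.07 SE, the first not called with unscaled totals. Members with an NRF1 match, 17 of those tested, had a median of -0.32 for the mean paclitaxel effect, and the 49 without one -0.25.

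The 2 EV labels were compared within each treatment, which asks what differs between cells labelled proficient and deficient in vesicle release. By sign alone, passed or not, EV-deficient libraries were lower in 13 of 79 members under DMSO and in 63 under paclitaxel. Of all 18108 genes they were lower in 8149 and 9129. Under DMSO 16 members passed, 15 higher and 1 lower, where 23.0% of all genes passed, 12.4% higher and 10.6% lower. The median was 0.11, against 0.04 for all genes. Median-of-ratios scaling gave 8 higher and 1 lower, and 8 of the 15 kept the call under all 3 other scalings. The count also rested on single libraries, at 4 without EV-proficient DMSO replicate 1, 6 without EV-deficient DMSO replicate 1 or EV-deficient paclitaxel replicate 1, 7 without EV-proficient paclitaxel replicate 1, 8 without EV-deficient DMSO replicate 3 and 10 without EV-proficient paclitaxel replicate 3. EV-proficient DMSO replicate 1 was the lowest of its group for 57 of the 79 members. Under paclitaxel 38 members passed, 2 higher and 36 lower, where 37.8% of all genes passed, 16.0% higher and 21.8% lower. The median was -0.19, against -0.00 for all genes, and upper-quartile scaling gave 6 higher and 21 lower, unscaled totals 6 higher and 20 lower. All 36 kept the direction under the 3 other scalings and 20 the call.

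Among called members above 5 CPM whose libraries did not overlap, the highest differences under DMSO were in complex V. Atp5h had 171, 176 and 177 CPM in the EV-proficient and 235, 226 and 216 CPM in the EV-deficient libraries, without overlap (0.37 ± 0.06 SE, edgeR adjusted p 0.000148). Atp5l had 18.2, 18.2 and 20.1 CPM against 22.6, 25.2 and 24.4 CPM (0.35 ± 0.09 SE, 0.00837). Both genes have near-identical pseudogene copies over the whole coding sequence. Ndufa6 followed (0.34 ± 0.10 SE, edgeR adjusted p 0.0221), and its call was lost, at 0.24 to 0.35, without any 1 of 6 libraries: EV-proficient DMSO replicate 1 or 2, EV-deficient DMSO replicate 1 or 3, or replicate 1 of either paclitaxel group. Atp5j2 was the 1 member that passed lower (-0.32 ± 0.07 SE, 0.00199). Among such members under paclitaxel, Ndufs7 (-0.77 ± 0.10 SE), Ndufa6 (-0.69 ± 0.10 SE) and Atp5g2 (-0.69 ± 0.07 SE) were lowest in the EV-deficient libraries, with levels given above that did not overlap between labels. Among the same members, called, above 5 CPM and without overlap, Atp5j2 was highest (0.34 ± 0.07 SE).

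The difference between EV labels turned with the treatment in most members. It had the same sign under DMSO and paclitaxel in 15 of 79 members (19.0%), against 32.9% of all genes. In 57 members (72.2%) it was above 0 under DMSO and below 0 under paclitaxel, against 36.2% of all genes. The 10 members called under both treatments all had opposite signs: Ndufa6, Ndufa13, Ndufb10, Ndufb11, Ndufs7, Uqcr10, Cox7c, Atp5h and Atp5sl were up under DMSO and down under paclitaxel, and Atp5j2 was the reverse. Over all genes 2834 were called under both, 112 with the same sign. The 4 groups behind these 2 differences share no library. Across members the interaction, the paclitaxel effect in EV-deficient minus that in EV-proficient libraries, passed for 43 of 79, 40 lower and 3 higher, where 40.7% of all genes passed, 16.9% higher and 23.8% lower. Upper-quartile scaling and unscaled totals each gave 4 higher and 25 lower, where 53.9% and 54.6% of all called genes were higher (41.4% with trimmed means), and 25 of the 40 kept the call under all 3 other scalings. Its median was -0.29, against -0.04 for all genes, and 68 members had the lower paclitaxel effect in the EV-deficient libraries (86.1%, against 52.3% of all genes).

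**Figure D4:**
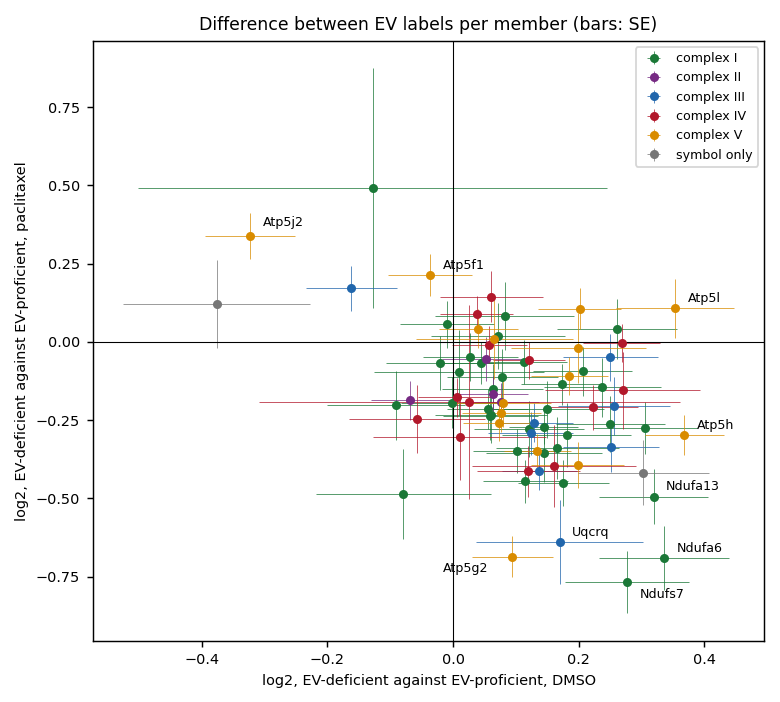
Difference between EV labels for 77 tested members, as log2 of EV-deficient against EV-proficient under DMSO on the horizontal axis and under paclitaxel on the vertical axis, coloured by complex, with standard errors as bars. Most points lie at the lower right, above 0 under DMSO and below 0 under paclitaxel, and Atp5j2 lies at the upper left.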

How the data were processed

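RNA was measured in poly(A)-selected, strand-marking libraries, per the labels' protocols. For the 12 libraries, raw counts per gene stand in 1 table as the authors deposited it. STAR 2.5.0a and GRCm38 are named in the submitters' processing notes, without their roles. The counting program, its annotation release and its use of strand are not given in the sources used here. The 2 rows for gfp and dngfr, marked as added, were left out of library sizes and tests.

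Members and gene lists were chosen with earlier results of these data known. Of 35104 genes with any count, 18108 passed edgeR's filterByExpr (minimum count 10) and were tested with edgeR 4.0.16 (quasi-likelihood, limma 3.58.1, R 4.3.3) on libraries scaled by trimmed means of M-values (TMM), with 1 fit of 4 groups, Benjamini-Hochberg adjustment over all genes tested and a threshold of 0.05. Standard errors (SE) were derived from the same fit, as the absolute log2 fold change over the square root of the F statistic. The procedure was tested on simulated data. Named members were the 3 highest and 3 lowest called in each comparison with a mean of at least 5 CPM and, outside the interaction, groups that did not overlap, together with members fixed for their role. TPM used exon lengths from GENCODE M21 (GRCm38), and gene positions came from it as well. A near-identical copy was another gene with at least 95% identity to the coding sequence over at least 100 bases, and a limit of 50% of it covered marked 22 members. Replicates of a group differed beyond sampling noise (chi-square per degree of freedom 4.20 to 27.8), and each library was kept as a unit. Separate preparations of 1 culture can differ in this way too, so this cannot show that the cultures were separate. The depth of 23263472 to 62955757 counts puts the limit that a count of 0 allows, 3 counts per library, well below the filter, and this limit covers counting error only. Alternatives were DESeq2 1.42.0, limma-voom, other scalings, other filters, a fit of the compared groups alone, a replicate block and leaving out each library. Unscaled totals, the count without copied members and the medians across EV labels were chosen after the data were seen.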

Additional observations from a re-analysis of the deposited data

Results flagged for a closer look

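By the labels as given, the paclitaxel effect differed between the EV labels for 43 of 79 members by the interaction test, where 40.7% of all genes passed. Among called members above 5 CPM, the difference (EV-deficient minus EV-proficient, log2 scale) was highest for Atp5j2 (0.66), Uqcrb (0.33) and Atp5f1 (0.25). It was lowest for Ndufs7 (-1.04), Ndufa6 (-1.03) and Ndufa13 (-0.81). Near-identical pseudogenes cover 100% of the coding sequence of Uqcrb and 90.1% of that of Atp5f1. The added row for dngfr, which no comparison used, reached 14.2 CPM in a library labelled EV-deficient given paclitaxel, above every DMSO library of that label.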

How the results depend on the processing

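The direction of the members' medians held under every alternative run for 5 of the 6 comparisons, and turned for paclitaxel in EV-proficient libraries, to 0.067 with unscaled totals (-0.22 to -0.084 without 1 library). Upper-quartile scaling gave medians of -0.22 for paclitaxel in EV-deficient libraries, -0.17 for the mean of both labels, -0.098 for the EV labels under paclitaxel and -0.17 for the interaction. Unscaled totals gave -0.075, -0.029, -0.088 and -0.17 in that order, and 42 members called for paclitaxel in EV-deficient libraries. Set against the DMSO libraries of the other EV label, the paclitaxel libraries gave medians of -0.25 (EV-proficient paclitaxel) and -0.31 (EV-deficient paclitaxel). Between EV labels under DMSO, members called numbered 9 by median-of-ratios and 10 by upper-quartile scaling, 25 without the filter, 8 when members with near-identical copies were left out, and 4 to 18 without 1 library. With trimmed-mean library sizes the log2 ratio of paclitaxel to DMSO levels for complexes I to V became -0.061, -0.22, -0.14, -0.020 and -0.19 in EV-proficient and -0.44, -0.42, -0.59, -0.28 and -0.51 in EV-deficient libraries. The cause was not tested. Counts of called members without 1 library were 32 to 45, 57 to 64, 26 to 44, 31 to 44 and 55 to 66 for paclitaxel in EV-proficient and EV-deficient libraries, EV labels under paclitaxel, the interaction and the mean paclitaxel effect. Among the 26 results named for the highest and lowest changes, 4 (Atp5f1 and Uqcrb in the interaction, Ndufa6 under DMSO, Ndufc1 in EV-deficient libraries) lost their call in 16 fits in all, and 0 reversed. Members described for their role lost calls or turned with unscaled totals where the results say so. Labels number the replicates alike across groups, but same-numbered libraries did not deviate together (18 pairs, r from -0.081 to 0.097, 5 of 12 libraries closest to their own number). With a replicate block the counts were 42, 64, 18, 41, 46 and 61 for paclitaxel in EV-proficient and EV-deficient libraries, EV labels under DMSO and under paclitaxel, the interaction and the mean paclitaxel effect.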
